A study of Danio rerio with 12 samples.

Results

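The lysosome is acidified by the vacuolar H+-ATPase (V-ATPase), and its membrane carries the machinery that switches the growth-promoting kinase complex mTORC1 on and off. The genes described here are those encoding V-ATPase subunits, lysosomal membrane proteins and channels, the transcription factors of the lysosome, and mTORC1 with its regulators. They were chosen by gene name, with earlier results of these data known. The names begin with *atp6v* or *atp6ap*, *lamp1* to *lamp5*, *mcoln*, *clcn3* to *clcn7*, *tmem175*, *laptm*, *tfeb* or *tfe3*, *mitf*, *rrag*, *lamtor*, *flcn*, *rptor*, *tsc1* or *tsc2*, or are *mtor* itself. Of the 22962 genes measured, 68 carried such a name, and 64 of these reached the mean of 1 CPM (read counts scaled to the library size) over all libraries that was required for testing. The pattern also caught *tsc22d1*, *tsc22d2* and *tsc22d3*. These encode TSC22 domain transcription regulators and share only letters with the TSC complex, so the label holds for 65 genes, 61 of them tested. A pair of genes carry the name *atp6v1e1a*, and they are told apart below by their Ensembl IDs.

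RNA-seq was carried out on GFP+ cells that were sorted from transected heads of zebrafish larvae carrying the *mpeg1*:GFP transgene. The *mpeg1* promoter drives GFP in microglia and in peripheral macrophages alike, so the samples do not separate these cells. Transcripts of neutrophil marker genes were also present, at the levels given below. All larvae were 4 days post fertilisation (dpf). Injured larvae had the optic tectum pierced with a fine metal pin, and cells were collected at 2 h post injury (hpi). Sham larvae were anaesthetised, mounted in agarose and released, but were not pierced. Each sample pooled cells of about 180 larvae. There were 6 sham samples and 3 injury samples (replicates 1, 2 and 4), and injury replicates 3, 5 and 6, which were excluded by the submitters, were not analysed here. Separate pools were labelled as replicates, and whether they came from separate clutches is not stated, so p-values measure the spread between these pools.

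The V-ATPase has a peripheral V1 sector that hydrolyses ATP and a membrane-embedded V0 sector that moves protons. Both sectors must be joined for the pump to work. Macrophages and microglia digest engulfed material in acidified phagosomes and lysosomes and are rich in this pump. The same membrane anchors the Ragulator complex, which tethers the Rag GTPases that recruit mTORC1 when amino acids are plentiful. Active mTORC1 keeps the MiT/TFE factors (Tfeb, Tfe3, Mitf) in the cytoplasm. When it is off, these factors enter the nucleus and raise the transcription of lysosomal and V-ATPase genes in mammalian cells. Calcium released through the mucolipin channels of the lysosome is a further input to the same factors in mammals.

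Reads on genes ranged from 6868772 to 8180104 in the sham libraries and from 6754699 to 7156275 in the injury libraries, and 3 reads corresponded to 0.349 to 0.466 CPM. In a principal component analysis of all tested genes the first component held 21.7% of the variance and separated the injury libraries (34.5 to 46.6) from the sham libraries (-64.3 to 0.325). Sham replicate 3 stood apart at -64.3, whereas the next lowest sham library was at -24.0. The TMM scaling factors were 0.976 to 1.06 in sham and 0.932 to 0.953 in injury libraries. All 12 listed macrophage lineage markers were measured, with summed levels of 10649 to 12829 CPM in sham and 12722 to 13764 CPM at 2 hpi. For the 10 microglial markers the sums were 8906 to 13471 and 10313 to 14099 CPM. For 6 of the 7 neutrophil markers that were found, they were 6137 to 8249 and 6517 to 8753 CPM. Within this sum *mmp9* rose from a mean of 417 to 1850 CPM. *mpx* (log2FC -0.33, FDR = 0.125 in limma) and *npsn* (-0.14, FDR = 0.552) were lower on average, and 3 of the 6 had a log2FC above 0. Over all libraries *npsn* averaged 3811 CPM, beside 2571 CPM for *mpeg1.1*. Levels of different genes were not scaled to transcript length, so the share of neutrophils in these samples cannot be read from them. Neuronal, erythrocyte and keratinocyte marker sums stayed at or under 172 CPM in every library. At FDR < 0.01, *spi1b*, *slc7a7* and *mmp9*, 1 gene each of the macrophage, microglial and neutrophil lists, were higher at 2 hpi. The groups overlapped in the sum of each marker list, and 0 of the markers found were at 0 in all libraries. In such bulk samples, fewer cells of a type and less RNA per cell cannot be told apart.

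At 2 hpi, 3 of the 64 genes had changed at FDR < 0.01 in limma, all of them upwards: the mucolipin channel gene *mcoln3a*, at 2.85 times its sham mean, and the V0 sector genes *atp6v0d1* and *atp6v0a1a*, at 1.52 and 1.48 times theirs. At this threshold 2.68% of all 16347 tested genes had changed, 2.09% upwards and 0.593% downwards, against 4.69% of the 64. Thus the share called was near the background and rested on few genes. At FDR < 0.05 a V1 sector gene, *atp6v1aa*, was added, which made 4 of the 64 all higher, beside 5.51% of all genes (3.55% higher and 1.96% lower). The count of 3 was not stable. With a single library left out it was 3 without sham replicate 3, 2 without sham replicate 1 (*mcoln3a* and *atp6v0d1*) and 1 (*mcoln3a*) without any of the other 7 libraries. With condition as the only factor, 0 of the 64 passed the threshold downwards in limma, edgeR or DESeq2, and 2 had an unadjusted p below 0.05 in that direction.

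Small differences in 1 direction were more frequent than calls. Of the 64 genes, 46 (71.9%) had a log2 fold change (log2FC, 2 hpi over sham) above 0, whereas 48.0% of all tested genes did. The 46 include *atp6v0a2a*, which reached the mean required for testing only through injury replicate 1. The median log2FC was 0.18 over the 64 genes and -0.02 over all tested genes. This count depended on scaling. When reads were scaled by library size alone, without TMM factors, the median of all genes moved by -0.11. Then 36 of the 64 were above 0. Under either scaling 48 of the 64 lay above the median of all genes. A change of scaling moves all genes nearly alike, so the count of 48 could hardly differ and is no check on the direction. Unadjusted p-values were below 0.05 in 12 genes (18.8%, background 17.4%), upwards for 10 (15.6%, background 8.77%) and downwards for 2 (3.12%, background 8.61%). In 6 genes (9.38%, background 5.68%) all 3 injury libraries lay above all 6 sham libraries, namely *mcoln3a*, *atp6v0d1*, *atp6v0a1a*, *atp6v1aa*, *tfe3a* and *atp6v1e1b*. In 0 genes did all injury libraries lie below all sham libraries (background 4.55%).

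**Figure D1:**
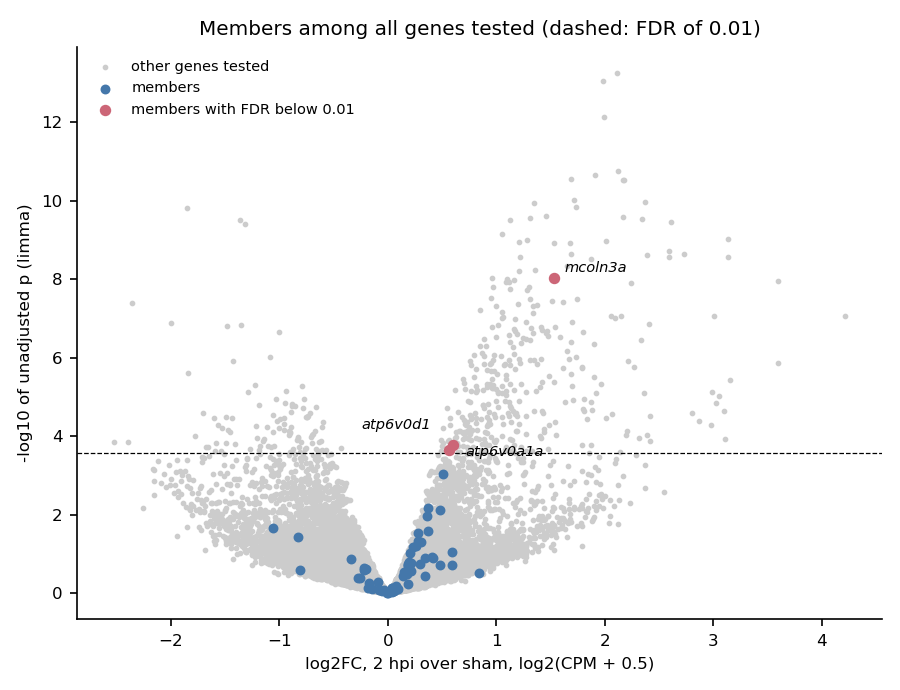
Log2 fold change at 2 hpi over sham (x axis) against -log10 of the unadjusted limma p (y axis) for all 16347 tested genes, with the 64 V-ATPase, lysosomal membrane and mTORC1 genes marked. *mcoln3a* stands far out on the upper right at a log2FC of 1.54, and most of the other genes sit low and slightly to the right of 0.

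**Figure D2:**
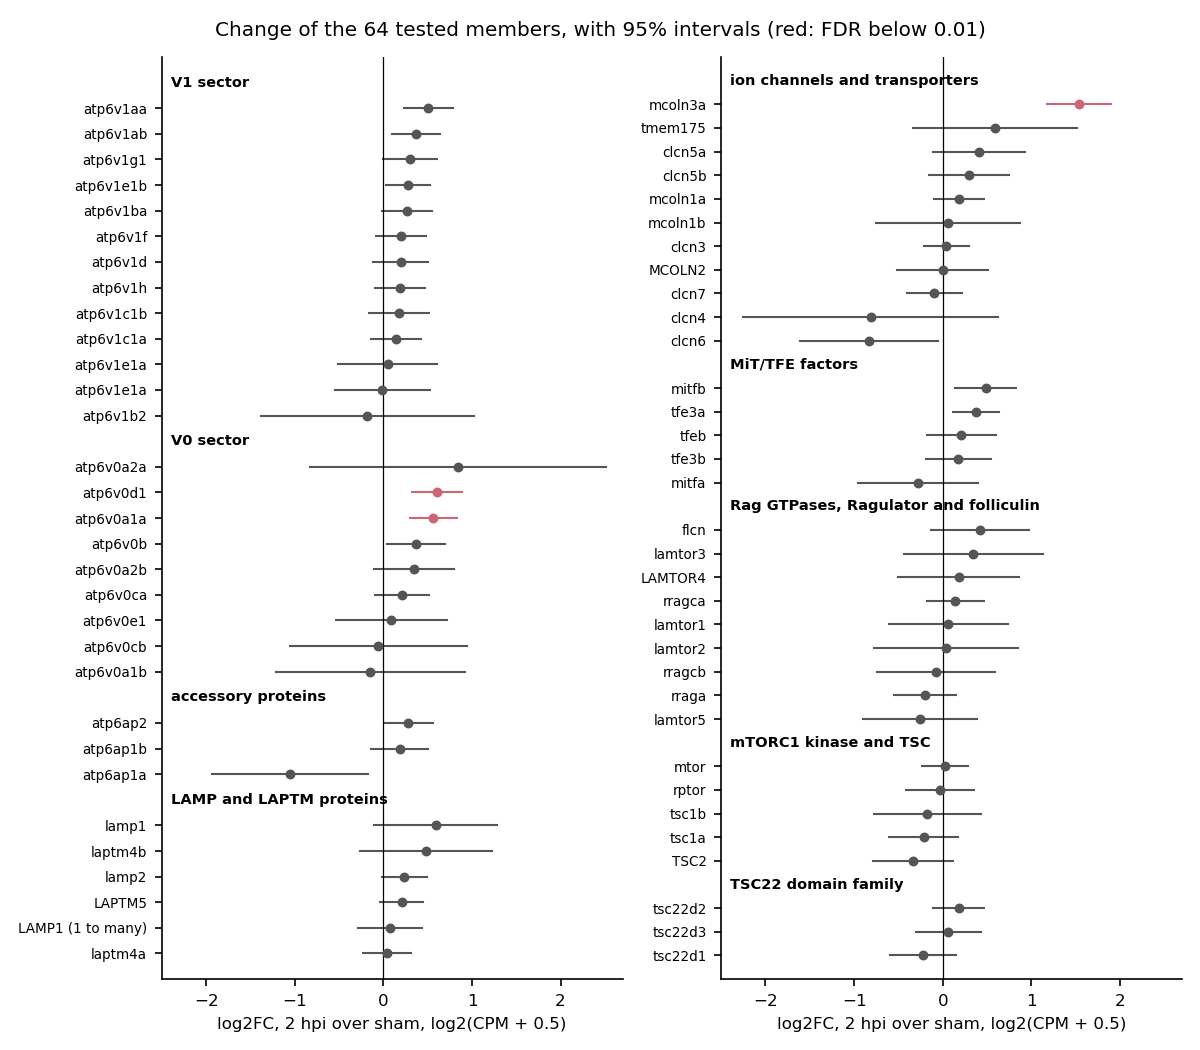
Log2 fold change at 2 hpi over sham with its 95% interval from limma (x axis) for each of the 64 tested genes, grouped by role. Intervals of *mcoln3a* (1.18 to 1.89), *atp6v0d1* (0.33 to 0.88) and *atp6v0a1a* (0.30 to 0.83) lie above 0, whereas those of the mTORC1 kinase and TSC genes all include 0.

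Among the ion channels and transporters (11 genes, all tested), *mcoln3a* was the gene that changed. It encodes mucolipin 3, a cation channel of endosomes and lysosomes that lets calcium out of these compartments. *mcoln3a* (ENSDARG00000078363) was at 66.0 CPM in the lowest, 91.0 CPM in the median and 137 CPM in the highest sham library. The injury libraries held 291, 235 and 291 CPM. Every injury library was therefore well above every sham library, with means of 95.6 ± 24.3 CPM (SD, n = 6) for sham larvae and 272.5 ± 32.3 CPM (SD, n = 3) for injured larvae. The log2FC was 1.54 with a standard error of 0.17 (limma, FDR = 3.72e-06), which placed the gene at rank 41 of all tested genes by p-value. The exact permutation test over the 84 ways to choose the injury libraries gave the smallest p it can reach, 0.0119, two-sided. The call held in 9 of 9 omissions of a library, with a log2FC of 1.44 to 1.65. A long non-coding RNA gene overlaps *mcoln3a* in the RefSeq annotation. Libraries were made from amplified cDNA with a DNA library kit, and the sources used here do not state that reads were counted by strand. Reads of the overlapping gene may therefore be included in the values of *mcoln3a*.

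The other mucolipin genes showed no such difference. *mcoln1a* encodes mucolipin 1, the main calcium release channel of the lysosome in mammals. Its level was 143 to 191 CPM in sham libraries and 205, 149.8 and 193 CPM at 2 hpi, a log2FC of 0.18 with an interval of -0.10 to 0.46. *mcoln1b* and *MCOLN2* had a log2FC of 0.06 (-0.76 to 0.88) and -0.00 (-0.52 to 0.51). Sham and injury libraries overlapped in all 3 of these genes. Within a library, the log2 ratio of *mcoln3a* to *mcoln1a* was -0.77 ± 0.35 (SD) in sham and 0.58 ± 0.07 (SD) at 2 hpi. Such a ratio hardly depends on the scaling of the libraries, and this one separated the groups without overlap. So did the ratio to *MCOLN2* (2.29 ± 0.44 in sham and 3.82 ± 0.54 at 2 hpi), whereas the ratio to the low gene *mcoln1b* overlapped (2.61 to 5.04 in sham and 4.99 to 5.17 at 2 hpi). The ratios were looked at after the values of *mcoln3a* were known and are given without a test.

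The CLCN genes encode chloride channels and the proton-coupled chloride exchangers that balance charge while endosomes and lysosomes acidify. *clcn3* had the most reads of the channel genes in total, with 179.7 to 239 CPM in sham libraries and 187, 231 and 205 CPM at 2 hpi. Its log2FC was 0.04 (-0.22 to 0.30), so the groups were not distinguishable, and the sign turned with library size alone (-0.08). *clcn7*, the lysosomal exchanger needed for bone resorption in mammals, had a log2FC of -0.09 (-0.40 to 0.21). *clcn6* was lower on average, at 18.3 ± 8.20 CPM in sham and 9.42 ± 3.19 CPM at 2 hpi. Its sham libraries ran from 6.27 CPM in replicate 3 to 28.9 CPM in replicate 1 and overlapped the injury values of 11.1, 5.74 and 11.4 CPM (log2FC -0.83, standard error 0.38, FDR = 0.247). Without sham replicate 3 the log2FC of *clcn6* was -1.10 (FDR = 0.0350), and with the replicate number as a block in the fit it was -1.41 (FDR = 0.00415). Over the omissions of a library, the log2FC of *clcn6* ran from -1.10 to -0.53 and its limma FDR from 0.0350 to 0.589. *clcn5a* was at 16.2 CPM in injury replicate 1 and at 27.8 and 40.2 CPM in injury replicates 2 and 4, around a sham range of 17.6 to 22.8 CPM, and did not pass the test (log2FC 0.41, FDR = 0.434). The proton channel gene *tmem175* was low, at 4.91 ± 2.56 CPM in sham and 7.03 ± 1.97 CPM at 2 hpi. Summed over the 11 channel genes, the level was 678 to 818 CPM in sham and 921 to 962 CPM at 2 hpi. Without *mcoln3a* the sums overlapped, at 604 to 712 CPM in sham and 640.2 to 685 CPM at 2 hpi, so the gap in the sum came from that gene.

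**Figure D3:**
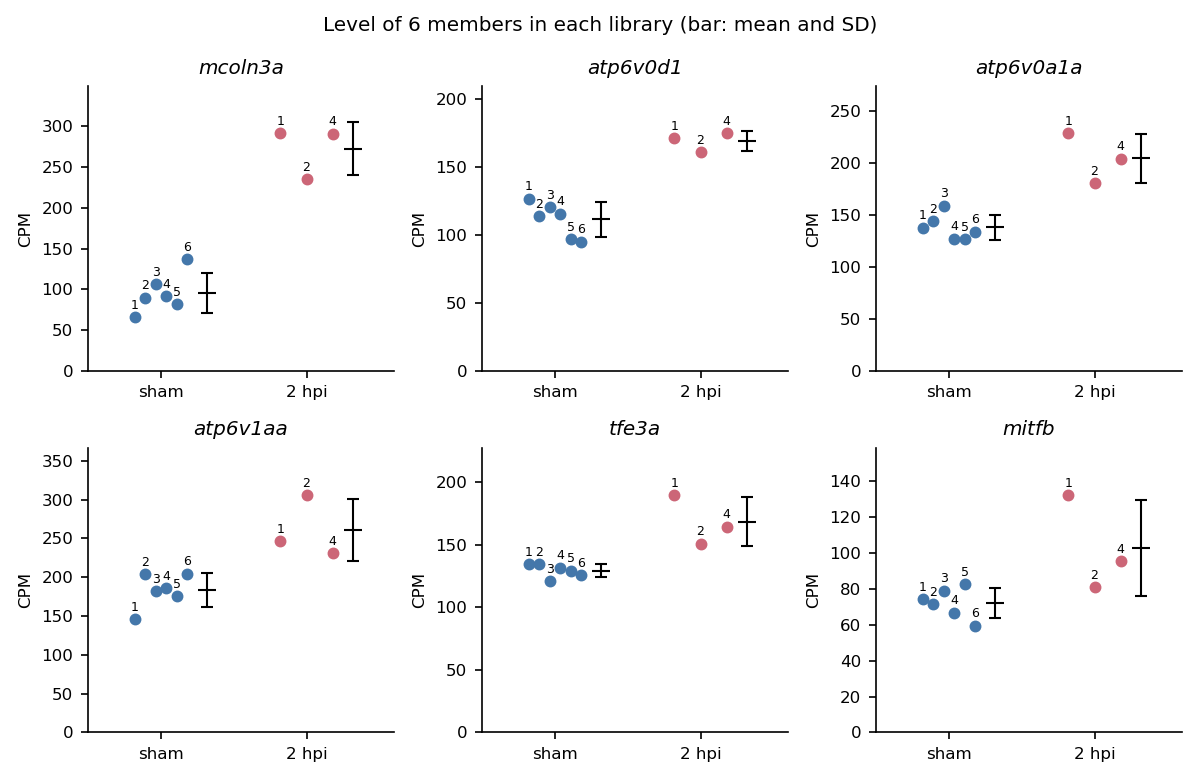
CPM (y axis) of *mcoln3a*, *atp6v0d1*, *atp6v0a1a*, *atp6v1aa*, *tfe3a* and *mitfb* in each library, with points for the 6 sham and 3 injury libraries and bars for the mean and SD of each group. The injury points lie above all sham points in the first 5 genes, and for *mitfb* the injury point at 80.7 CPM lies within the sham range of 59.5 to 82.4 CPM.

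The V0 sector held both V-ATPase genes that passed the threshold. *atp6v0d1* encodes subunit d, which sits on the proteolipid ring and couples it to the central stalk. *atp6v0d1* (ENSDARG00000069090) was at 95.1, 115 and 127 CPM in the lowest, median and highest sham library and at 171, 161 and 175 CPM in the injury libraries. The lowest injury library was thus above the highest sham library, and the spread within the injury group was small. Means were 112 ± 12.9 CPM (SD, n = 6) and 169 ± 7.27 CPM (SD, n = 3), with a log2FC of 0.61, a standard error of 0.13 and FDR = 0.00722 in limma. The call was kept in 2 of 9 omissions, those of sham replicate 1 and sham replicate 3. FDR reached 0.0468 without injury replicate 4, with the log2FC between 0.56 and 0.64 over the omissions, and was 0.0275 with a replicate block.

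*atp6v0a1a* encodes an isoform of subunit a, the large membrane subunit that provides the path for protons and targets the pump to its compartment. *atp6v0a1a* (ENSDARG00000020847) was at 127, 136 and 159 CPM in the lowest, median and highest sham library and at 229, 181 and 204 CPM in the injury libraries. Again the groups did not overlap. The means were 138 ± 12.1 CPM (SD, n = 6) and 205 ± 23.9 CPM (SD, n = 3), with a log2FC of 0.56, a standard error of 0.13 and FDR = 0.00887 in limma. Only without sham replicate 3 was it still below 0.01, and without injury replicate 1 it was 0.0806, with a log2FC of 0.48. Exact permutation gave 0.0119 for *atp6v0d1* and for *atp6v0a1a*, the smallest p possible here. Both calls were lost when TMM factors were left out of the scaling (library size alone), at FDR = 0.0288 and FDR = 0.0319.

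Of the 10 V0 genes 9 were tested, 7 had a log2FC above 0 (background 48.0%) and the median was 0.35. These values include *atp6v0a2a* (log2FC 0.84), at 10.3 CPM in injury replicate 1 and at most 1.35 CPM in any sham library. It reached the mean of 1 CPM required for testing only through injury replicate 1. *atp6v0ca*, which encodes the proteolipid subunit c that forms most of the ring, had the most reads, at 815 to 1398 CPM in sham and 1135, 1352 and 1089.9 CPM at 2 hpi. The highest sham value of *atp6v0ca* exceeded every injury value, and its log2FC of 0.21 (-0.10 to 0.52) did not pass the test. *atp6v0b*, the second kind of ring subunit, was at 81.8 to 129.7 CPM in sham, where replicate 3 lay far above the rest, and at 107, 125 and 129 CPM at 2 hpi (log2FC 0.37, FDR = 0.204, and 0.0468 without sham replicate 3). Over the omissions of a library, the limma FDR of *atp6v0b* reached up to 0.442. A further subunit a gene, *atp6v0a2b*, was at 31.5 to 60.3 CPM in sham and at 65.9, 34.9 and 56.6 CPM at 2 hpi (log2FC 0.35, FDR = 0.449). The copy *atp6v0a1b* was at 3.71 ± 1.79 and 3.49 ± 2.10 CPM, so nearly all reads on the a1 pair came from *atp6v0a1a*. Summed V0 levels were 1205 to 1866 CPM in sham, with replicate 3 highest, and 1676 to 1869 CPM at 2 hpi.

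The V1 sector differed little, and mostly in 1 direction. Of 14 genes 13 were tested, 11 had a log2FC above 0 (background 48.0%) and the median was 0.19. At FDR < 0.01, 0 passed in limma (background 2.68%), edgeR or limma-voom with condition as the only factor. By unadjusted limma p, 3 of the 13 tested V1 genes were below 0.05, all upwards (background 8.77% upwards). *atp6v1aa* and *atp6v1ab* encode subunit A, which carries the catalytic sites for ATP. *atp6v1aa* (ENSDARG00000034534) was at 146, 184 and 204 CPM in the lowest, median and highest sham library and at 246, 306 and 231 CPM in the injury libraries. The groups did not overlap, and the means were 183 ± 21.8 CPM (SD, n = 6) and 261 ± 39.8 CPM (SD, n = 3). With a log2FC of 0.51, a standard error of 0.13 and FDR = 0.0240 in limma, it passed the looser threshold. DESeq2 put it at FDR = 0.00501 and limma with a replicate block at FDR = 0.00748, whereas FDR was 0.168 without injury replicate 2.

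For *atp6v1ab* the sham range was 182 to 238 CPM and the injury values were 266, 318 and 223 CPM (log2FC 0.37, FDR = 0.122). The ratio between both subunit A genes overlapped between the groups, at a log2 of -0.18 ± 0.18 (SD) in sham and -0.04 ± 0.08 (SD) at 2 hpi. *atp6v1e1b*, which encodes the peripheral stalk subunit E, was at 152 to 179 CPM in sham and 186, 193 and 216 CPM at 2 hpi. Its groups were separate, but the difference was small (log2FC 0.28, standard error 0.12, FDR = 0.215). *atp6v1g1*, the stalk partner subunit G, had a log2FC of 0.30 (FDR = 0.289). *atp6v1ba*, the subunit B gene with the most reads of the sector, was at 416 ± 75.8 CPM in sham and 495 ± 59.6 CPM at 2 hpi (log2FC 0.26, FDR = 0.329). *atp6v1f* (0.20) and *atp6v1h* (0.19), of the rotor and of the regulatory subunit H, were close to the median of the sector. The pair named *atp6v1e1a* had a log2FC of 0.05 (ENSDARG00000003635) and -0.01 (ENSDARG00000014085). The first of these IDs is named *mogat3b* in the ID table used here. All 68 genes of the set were found in that table, and 43 of them carry the same symbol there. Summed V1 levels were 1396 to 1729 CPM in sham and 1779 to 2109 CPM at 2 hpi and did not overlap. With library size alone they did, at 1429 to 1776 and 1696 to 2011 CPM.

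The accessory proteins assist assembly and trafficking of the pump. *atp6ap2*, the prorenin receptor gene, had the most reads among them, at 208 to 329 CPM in sham and 345, 318 and 271 CPM at 2 hpi (log2FC 0.28, FDR = 0.276). *atp6ap1b*, a copy of the gene for the Ac45 protein, was at 216 ± 51.0 CPM in sham and 241 ± 3.89 CPM at 2 hpi. The other copy, *atp6ap1a*, had few reads (12 to 67 per library) and was at 3.10 to 9.15 CPM in sham and at 2.28, 1.86 and 3.23 CPM at 2 hpi. Its log2FC of -1.05 was the lowest of the 64 genes, with an interval of -1.94 to -0.17 and FDR = 0.184. *atp6ap1a* overlaps a protein-coding gene in the RefSeq annotation.

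Among the abundant glycoproteins and small membrane proteins of the lysosome, 6 of 6 genes had a log2FC above 0 (median 0.22, background 48.0%). In limma 0 passed FDR < 0.05 (background 5.51%), or an unadjusted p below 0.05 (background 17.4%). *lamp2* and *lamp1* encode the heavily glycosylated proteins that line the lysosomal membrane. *lamp2* was at 281 to 393 CPM in sham and 422, 343 and 382 CPM at 2 hpi (log2FC 0.24, FDR = 0.331). *lamp1* was low, at 6.01 to 15.04 CPM in sham and 10.6, 15.1 and 11.6 CPM at 2 hpi (log2FC 0.59, interval -0.10 to 1.28). A second *LAMP1* gene, named "LAMP1 (1 to many)" in the table, had more reads and a log2FC of 0.08. *LAPTM5*, a lysosomal transmembrane protein of blood-derived cells, was at 624 ± 82.7 CPM in sham and 716 ± 62.9 CPM at 2 hpi (log2FC 0.21, interval -0.04 to 0.45). None of these genes had groups without overlap. Summed over the 6 genes, the levels were 1046 to 1300 CPM in sham and 1327 to 1451 CPM at 2 hpi with TMM factors, and they overlapped with library size alone.

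The MiT/TFE factors are basic helix-loop-helix transcription factors that bind the promoters of lysosomal genes. With all libraries, 0 of the 5 genes passed FDR < 0.05 in limma (background 5.51%), and 2 had an unadjusted p below 0.05, both upwards (background 8.77% upwards). In DESeq2, *tfe3a* (FDR = 0.0198) and *mitfb* (FDR = 0.0377) passed that looser threshold. *tfe3a* (ENSDARG00000098903) had very even sham levels, from 121 to 135 CPM with a median of 131 CPM, and was at 190.0, 151 and 165 CPM in the injury libraries. All injury libraries were above all sham libraries, with a log2FC of 0.37, a standard error of 0.12 and FDR = 0.0902. *mitfb* (ENSDARG00000037833) was at 59.5 to 82.4 CPM in sham and 132, 80.7 and 95.3 CPM at 2 hpi. Injury replicate 1 was high and injury replicate 2 lay within the sham range (log2FC 0.48, standard error 0.17, FDR = 0.0991, and 0.0461 without injury replicate 2). Over the omissions of a library, the limma FDR of *mitfb* ran from 0.0461 to 0.4745 and its log2FC from 0.29 to 0.64. *mitfb* also overlaps another protein-coding gene in the RefSeq annotation.

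For *tfeb*, the best-studied member in mammals, the sham libraries ranged from 88.2 to 153 CPM and the injury libraries held 106, 190.2 and 131 CPM. The interval of its log2FC was wide (-0.18 to 0.60 around 0.21). Injury replicate 2 was the highest of its group for *tfeb* and the lowest for *tfe3a* and *mitfb*. *tfe3b* had a log2FC of 0.18. *mitfa*, which specifies pigment cells in zebrafish, was low (8.48 ± 1.55 and 6.84 ± 0.814 CPM, log2FC -0.28). The summed level of the 5 factors was 359.6 to 412 CPM in sham and 464 to 499 CPM at 2 hpi. The sums did not overlap, also with library size alone (368 to 433 and 442 to 465 CPM), and are given as a description.

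At the docking site of mTORC1, no difference was detected for the Rag GTPases, Ragulator and folliculin. Of 9 genes 0 passed FDR < 0.05 (background 5.51%), or an unadjusted p below 0.05 (background 17.4%), in limma. A log2FC above 0 was found for 6 (background 48.0%), and the median was 0.06. *rraga*, a Rag GTPase gene with the most reads of this group, was at 75.4 to 130.3 CPM in sham and 74.3, 91.1 and 85.3 CPM at 2 hpi (log2FC -0.20, interval -0.55 to 0.15). *flcn* encodes folliculin, the GTPase activating protein that acts on RagC. In sham libraries *flcn* was at 18.2 to 27.2 CPM, whereas injury replicates 2 and 4 held 41.8 and 36.7 CPM and injury replicate 1 held 15.8 CPM, below every sham library. Its mean difference (log2FC 0.42, interval -0.13 to 0.97) was therefore smaller than the split within the injury group. The Ragulator genes *lamtor1* to *lamtor5* were low, at group means of 9.10 to 14.5 CPM, and their log2FC ran from -0.26 to 0.35 with intervals that all included 0. These intervals were wide, reaching down to -0.90 (*lamtor5*) and up to 1.13 (*lamtor3*), so little can be said about a change in them.

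The mTORC1 kinase and its TSC brake showed no detectable change. *mtor* encodes the kinase, and its sham levels of 130.4 to 166 CPM enclosed 2 of the injury values (169.9, 148 and 143 CPM). Its log2FC was 0.02, with an interval of -0.24 to 0.28, and turned to -0.10 with library size alone. *rptor*, the raptor subunit that presents substrates, had a log2FC of -0.03 (-0.42 to 0.35). The TSC complex turns off Rheb, the direct activator of the kinase. *TSC2* was at 22.6 to 46.3 CPM in sham and 26.7, 28.1 and 28.3 CPM at 2 hpi, a log2FC of -0.34 with an interval of -0.79 to 0.12. For *tsc1a* and *tsc1b* the log2FC was -0.22 and -0.17. Of the TSC22 domain genes, 0 of 3 passed the test, and their log2FC was -0.22 to 0.18.

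Zebrafish keep a pair of copies, a and b, of many of these genes. In 12 of 14 pairs matched by names ending in a and b, the log2 ratio overlapped between the groups. The exceptions were *mitfa* over *mitfb*, at -3.03 ± 0.21 (SD) in sham and -3.79 ± 0.26 (SD) at 2 hpi, and *atp6ap1a* over *atp6ap1b*, at -5.14 ± 0.59 and -6.38 ± 0.35. In both, the copy with few reads was relatively lower in the injury libraries. *atp6v1e1b* enters the 14 pairs with each ID named *atp6v1e1a*, also with ENSDARG00000003635, which the ID table names *mogat3b*. The pairs were compared after the values were known, without a test, and the share over other gene pairs was not computed.

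Other genes of the same machinery were read from lists of their names, of which 73 of 90 genes were found and 72 tested. At FDR < 0.01 in limma 2 were higher and 1 was lower (background 2.09% and 0.593%), 35 had a log2FC above 0 and the median was -0.01. Among the 15 tested partners and substrates of mTORC1, *rps6kb1a* rose. It encodes S6 kinase 1, which mTORC1 phosphorylates to promote protein synthesis. *rps6kb1a* (ENSDARG00000018399) was at 21.8, 33.96 and 46.0 CPM in the lowest, median and highest sham library and at 87.2, 97.7 and 91.3 CPM in the injury libraries. The lowest injury value was well above the highest sham value. The means were 33.6 ± 8.56 CPM (SD, n = 6) and 92.1 ± 5.29 CPM (SD, n = 3), with a log2FC of 1.48, a standard error of 0.20 and FDR = 4.81e-05. Its copy *rps6kb1b* was at 60.1 to 86.1 CPM in sham and 78.6 to 109.7 CPM at 2 hpi (log2FC 0.25, FDR = 0.446). *ulk1b*, a copy of the autophagy kinase gene *ulk1*, was lower at FDR < 0.05 (14.4 ± 5.06 and 5.94 ± 2.21 CPM, log2FC -1.21, FDR = 0.0352). The gene had 25 to 168 reads per library, and over the omissions of a library its limma FDR ran from 0.0298 to 0.198. The other copy, *ulk1a*, overlapped between the groups (12.5 ± 4.61 and 14.3 ± 4.40 CPM, log2FC 0.21, FDR = 0.795).

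Upstream of the Rag GTPases, *sesn1* fell. Sestrin 1 is a stress-induced inhibitor of mTORC1 that acts through the GATOR complexes. *sesn1* (ENSDARG00000020693) was at 261, 327 and 354 CPM in the lowest, median and highest sham library and at 129, 139.7 and 115 CPM in the injury libraries. The groups were far apart, and the log2FC of -1.32 (standard error 0.12, FDR = 2.96e-07 in limma) lay between -1.39 and -1.24 over the 9 omissions. The *sesn1* locus overlaps the protein-coding genes *si:ch211-51a19.5* and *armc2* in the RefSeq annotation. *sesn3* was also lower without overlap (39.7 ± 8.74 and 24.4 ± 2.38 CPM, log2FC -0.67, FDR = 0.0615), whereas *sesn2* was at 17.5 and 30.6 CPM on average and overlapped. Of the 16 amino acid sensing genes tested, 5 had a log2FC above 0 (background 48.0%) and 11 below, with a median of -0.22.

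Among 23 other lysosomal membrane genes, 1 was called at FDR < 0.01 in limma, upwards (background 2.09% upwards). *cd63*, a tetraspanin of late endosomes and lysosomes, was at 517 to 647 CPM in sham and 829, 849 and 791 CPM at 2 hpi. The injury libraries were all higher (log2FC 0.51, standard error 0.10, FDR = 0.00346). This call was kept in 5 of 9 omissions and lost without sham replicate 4 or any of the 3 injury replicates. With library size alone, 2 genes of all pathway lists were called at FDR < 0.01 instead of 3. *cln3*, the gene of the lysosomal protein lost in juvenile Batten disease in humans, passed FDR < 0.05 (33.8 ± 8.01 and 60.6 ± 12.1 CPM, log2FC 0.85, FDR = 0.0200). Over the omissions of a library, the limma FDR of *cln3* ran from 0.0178 to 0.133. Neither the 12 genes of V-ATPase assembly with the macrophage and osteoclast subunit a3 (*tcirg1b* log2FC 0.13) nor the 6 genes of the sister complex mTORC2 had a call at FDR < 0.05 in limma (background 5.51%). Among the 12, *tmem199* was higher (log2FC 0.73, FDR = 0.0934) and *rogdi* lower (log2FC -0.76, FDR = 0.258) without overlap between the groups. Over all tested genes, 5.68% were higher and 4.55% lower without overlap.

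**Figure D4:**
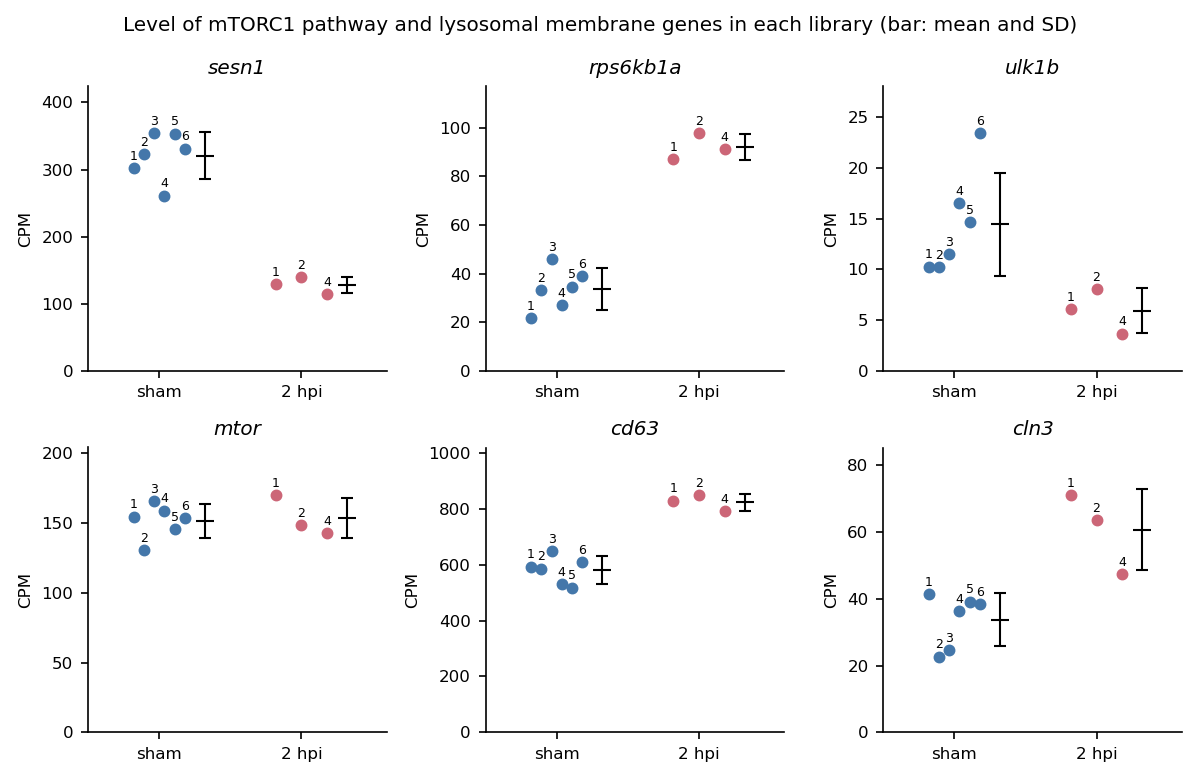
CPM (y axis) of *sesn1*, *rps6kb1a*, *ulk1b*, *mtor*, *cd63* and *cln3* in each library, with points for the 6 sham and 3 injury libraries and bars for the mean and SD of each group. *sesn1* and *ulk1b* lie lower and *rps6kb1a*, *cd63* and *cln3* higher at 2 hpi without overlap, whereas *mtor* overlaps.

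The remaining genes of the set were at the limit of what these libraries can resolve. *ATP6V0A4* (at most 8 reads in a library), *atp6v1c2* (7), *atp6ap1la* (21) and *atp6ap1lb* (5) had mean levels of 0.227 to 0.593 CPM and were not tested. Just above the required mean, *clcn4* was at 1.16 CPM, *atp6v0a2a* at 1.53 CPM and *atp6v1b2* at 1.67 CPM over the 9 libraries. The intervals of these 3 genes spanned more than 2 log2 units, and a change in them was not detectable at this depth.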

How the data were processed

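RNA of sorted cells was reverse transcribed and amplified (Ovation RNA-Seq System V2). According to the submitters' processing notes, Cutadapt 1.9, STAR 2.5.2b, featureCounts 1.5.1, edgeR 3.20.1 and the GRCz10 build were used. The signal values deposited by the authors are CPM on TMM-scaled library sizes. Columns with the authors' group means, fold changes and p-values were not used. All values were whole reads (100%, tolerance of 0.01 reads), and these were recovered for the count-based alternatives.

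The 16347 genes whose mean reached 1 CPM were fitted in limma 3.58.1 (R 4.3.3) with a variance trend on log2(CPM + 0.5), which understates changes of low genes, and condition as the only factor. P-values were Benjamini-Hochberg adjusted over all genes tested. Scripts were tested on simulated data. Named were all genes at FDR < 0.01, then those with the lowest p up to 24, and the gene with most reads of each role. From the pathway lists, 4 were named by the same order. The rest are given by ranges, counts and values singled out after they were seen. The genes and lists were chosen with earlier results of these data known. Alternatives covered pseudocounts of 0.1 and 1, filters, scaling, edgeR 4.0.16, DESeq2 1.42.0 and limma-voom on recovered reads, a replicate block and omission of each library. No 2 libraries of a group agreed within sampling noise (chi-square per gene at least 10.3). Intervals cover 95%. Levels per transcript length, promoter motifs and sequences were not analysed here. RefSeq (GRCz12tu) was used only for names and overlapping genes, and 30 of the 31 named genes were matched. Of these, 12 overlap another gene. They are *mcoln3a*, *mitfb*, *atp6ap1a* and *sesn1*, as stated above, and also *atp6v1e1b*, *clcn6*, *atp6ap2*, *lamp2*, *atp6v1f*, *rraga*, *clcn3* and *mtor*.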

Additional observations from a re-analysis of the deposited data

Results flagged for a closer look

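In 3 of the 31 named genes, a single sham library lay apart from the other 5, with a gap to its neighbour that was more than 0.625 of the range of the group. Chance gives such a gap in about 1 in 20 groups. For *atp6v0b* this was sham replicate 3 at 129.7 CPM, for *lamp1* sham replicate 6 at 15.04 CPM and for *atp6v0a2b* sham replicate 5 at 60.3 CPM, so the library differed in each case. With all libraries, 0 of these genes passed FDR < 0.05 in limma or DESeq2. Without sham replicate 3, *atp6v0b* did (log2FC 0.46, FDR = 0.0468), whereas its limma FDR reached up to 0.442 over the omissions of a library. Sham replicate 3, which stood apart over all genes, was the highest or lowest sham library for 32 of the 64 genes (50.0%) and for 47.1% of all tested genes.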

How the results depend on the processing

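Of 620 comparisons of a named gene with an alternative, 583 kept direction and side of the threshold, 25 lost the call, 7 gained it and 5 reversed. Only 3 of the 64 genes and 3 pathway list genes were called in the main fit. Most of the 583 were therefore genes without a call that stayed so. The threshold of FDR < 0.05 was read on the main fit, where no call can be lost or reversed, and gave 2 of the 7 gains. The reversals were *clcn3* with library size alone (-0.0785) and without injury replicate 2 (-0.0379, the omissions reaching up to 0.114), and *mtor* with library size alone (-0.10), without sham replicate 2 (-0.0197) and without injury replicate 1 (-0.0517, the omissions reaching up to 0.0733). *mcoln3a* was called in all alternatives. The count of 3 genes called out of 64, all higher, became 1 with no further filter and 1 with library size alone, since *atp6v0d1* and *atp6v0a1a* were lost (FDR = 0.0108 and 0.0135 with no further filter, where more genes were tested), and it was 4 in DESeq2. Leaving out each library in turn gave 1 to 3 genes, all higher, and 0 lower ones. The count of pathway list genes, 3, was 5 at FDR < 0.05 and 2 to 3 over the omissions. It was 2 with library size alone, and 4 in DESeq2 and with a replicate block. For all genes, 438 calls became 740 in DESeq2, 900 at FDR < 0.05 and 224 to 487 over the omissions, with the lowest counts without injury replicate 4 (224, of which 214 shared) and injury replicate 1 (264, of which 251 shared). The share of calls that were higher was 77.9%, and 57.4% with library size alone, 89.3% in limma-voom and 68.9% in DESeq2. The cause was not tested.

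The labels do not say that a replicate number marks a shared day or batch. For its RT-qPCR, run partly on samples of the RNA-seq, the paper compared injured with sham cDNA made on the same day. It does not say which replicate numbers these were. Whether the numbers pair the samples could therefore not be settled. Deviations of same-numbered samples correlated at 0.12, 0.11 and 0.02. For numbers 1 and 2 this was the highest correlation with any sham library, and for number 4 another sham library was slightly higher (0.03). With a replicate block, 619 genes were called in all, and 4 of the 64, of which 1 was lower (*clcn6*, log2FC -1.41, FDR = 0.00415) and 3 were higher (*mcoln3a*, *atp6v0a1a* and *atp6v1aa*), with *atp6v0d1* at FDR = 0.0275.

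Depth limits genes of few reads, since 3 reads correspond to up to 0.466 CPM, and with 3 injury libraries the exact test cannot go below 0.0119.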

Other observations

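A pair of genes near the limit of detection had most of their reads in the same library. *atp6v0a2a*, a gene of V-ATPase subunit a, was at 10.3 CPM in injury replicate 1 (68 reads) and at 0 to 1.35 CPM in the other 8 libraries, so that its fitted log2FC of 0.84 ran from -0.52 to 1.69 over the omissions. Only through injury replicate 1 did *atp6v0a2a* reach the mean required for testing. *atp6ap1la* was at 3.19 CPM (21 reads) in injury replicate 1 and at no more than 0.704 CPM elsewhere. *atp6v0a2b*, the copy of *atp6v0a2a*, was at 65.9 CPM in that library, beside 34.9 and 56.6 CPM in injury replicates 2 and 4.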
